A study of Homo sapiens with 4 samples.

Results

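The 9p21 tumour suppressor genes and the machinery that carries a cell through the G1 phase were followed in the human glioma line U87MG, an established line. The members were MTAP, CDKN2A and CDKN2B of chromosome band 9p21, the CDK inhibitors CDKN2C and CDKN1B, the kinases CDK4 and CDK6, the D cyclins CCND1 and CCND3, and RB1. Every probe set whose platform annotation gave 1 gene symbol, that symbol being a member, was kept. This gave 31 of 49293 probe sets, for 9 of 18132 genes; CDKN2C was not analysed here, and 1 probe set annotated to both MTAP and CDKN2B-AS1 was left out. One group of cells received the vector PC-490, which overexpresses the microRNA miR-490, and the other its control vector PCDNA. RNA was taken 48 h after transfection and hybridised to PrimeView 3' expression arrays, 2 per group. All cells were of 1 line and were transfected with a plasmid, and untransfected cells are not among the groups. Nothing in the labels tells whether the 2 arrays of a group came from separate cultures. Every p-value here is set against the spread between arrays of a group, which may be technical only.

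CDK4 and CDK6 bind D cyclins in G1 and phosphorylate the retinoblastoma protein, the product of RB1. The unphosphorylated protein holds E2F transcription factors in check, and its phosphorylation lets E2F switch on the genes of DNA replication. The INK4 proteins, among them p16 from CDKN2A and p15 from CDKN2B, bind CDK4 and CDK6 and block them, while p27 from CDKN1B binds cyclin-CDK complexes. CDKN2A also encodes ARF, which stabilises p53, from a reading frame of its own. MTAP, a neighbour of CDKN2A, encodes an enzyme that salvages methionine from a by-product of polyamine synthesis, and it is often lost together with CDKN2A in gliomas. U87MG is known as a line with a deletion of the CDKN2A region.

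MicroRNAs pair with messenger RNAs mainly through their seed, bases 2 to 8 from the 5′ end, and lower the stability or translation of those messages. The hairpin made from MIR490 gives 2 mature arms, and they are shown because they are what the PC-490 vector is designed to supply and because their seeds differ. The sequences are RefSeq's (GRCh38.p14, plus strand, chr7:136903205-136903224 for the 5p arm and chr7:136903242-136903263 for the 3p arm), with the seed in capitals.
hsa-miR-490-5p: cCAUGGAUcuccaggugggu
hsa-miR-490-3p: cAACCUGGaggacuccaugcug
CCND1 has been reported elsewhere as a target of miR-490-3p. The level of the microRNA was not analysed here, so its overexpression was not checked.

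The deposited values are log2 expression after RMA, and the 4 array medians lay between 5.15 and 5.17. Levels are therefore given as the log2 value and as its distance from the median of the array. Probe sets differ in how strongly they bind, so a level says how bright a probe set was and not how many transcripts a cell held. The mesenchymal glioma markers VIM, CD44, CHI3L1 and FN1 were bright, with their brightest probe sets 5.96 to 8.76 above the array median. The glial and stem markers SOX2, OLIG2, S100B and NES had no probe set above it in the mean, and GFAP had 2 of 8. Among markers of other cells, PTPRC, PECAM1, EPCAM and RBFOX3 had none, SYP had 1 of 3 and CD68 had both of its probe sets above.

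The 9p21 members gave low signals in both groups. All 12 probe sets of MTAP, CDKN2A and CDKN2B lay below the array median on all 4 arrays, where 48.5% of all probe sets did. For scale, 15 of 17 genes fixed as restricted to other tissues, such as ALB of liver and MYH7 of heart, also had no probe set above the median in the mean, while 12 of 12 ubiquitous genes had one. The arrays measure RNA and not DNA copy number, and a deleted gene and a silent gene cannot be told apart from these values.

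The 3 CDKN2A probe sets had mean levels of 2.75, 3.34 and 3.50, between 1.66 and 2.41 below the array median. The brightest of them, 11753744_a_at, read 3.45 and 3.49 in the control arrays and 3.51 and 3.55 in the miR-490 arrays. The 3 CDKN2B probe sets had means of 2.22, 2.25 and 2.98, between 2.18 and 2.94 below the median. The brightest, 11726507_a_at, read 2.97 and 3.10 in controls and 2.90 and 2.94 with miR-490. Both genes thus stayed below the middle of the signal range on each array, by 1.52 or more at every probe set. Of the 6 MTAP probe sets, 5 had means of 2.25 to 2.74, which put them in the lowest 14.8% of the table. The sixth, 11762346_at, lay closer to the median, at 4.52 and 4.76 in controls and 4.51 and 4.70 with miR-490, which is 0.54 below the array median in the mean. The probe sets of MTAP thus disagree on how far below the median the gene lies, and agree in lying below it on every array.

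**Figure D1:**
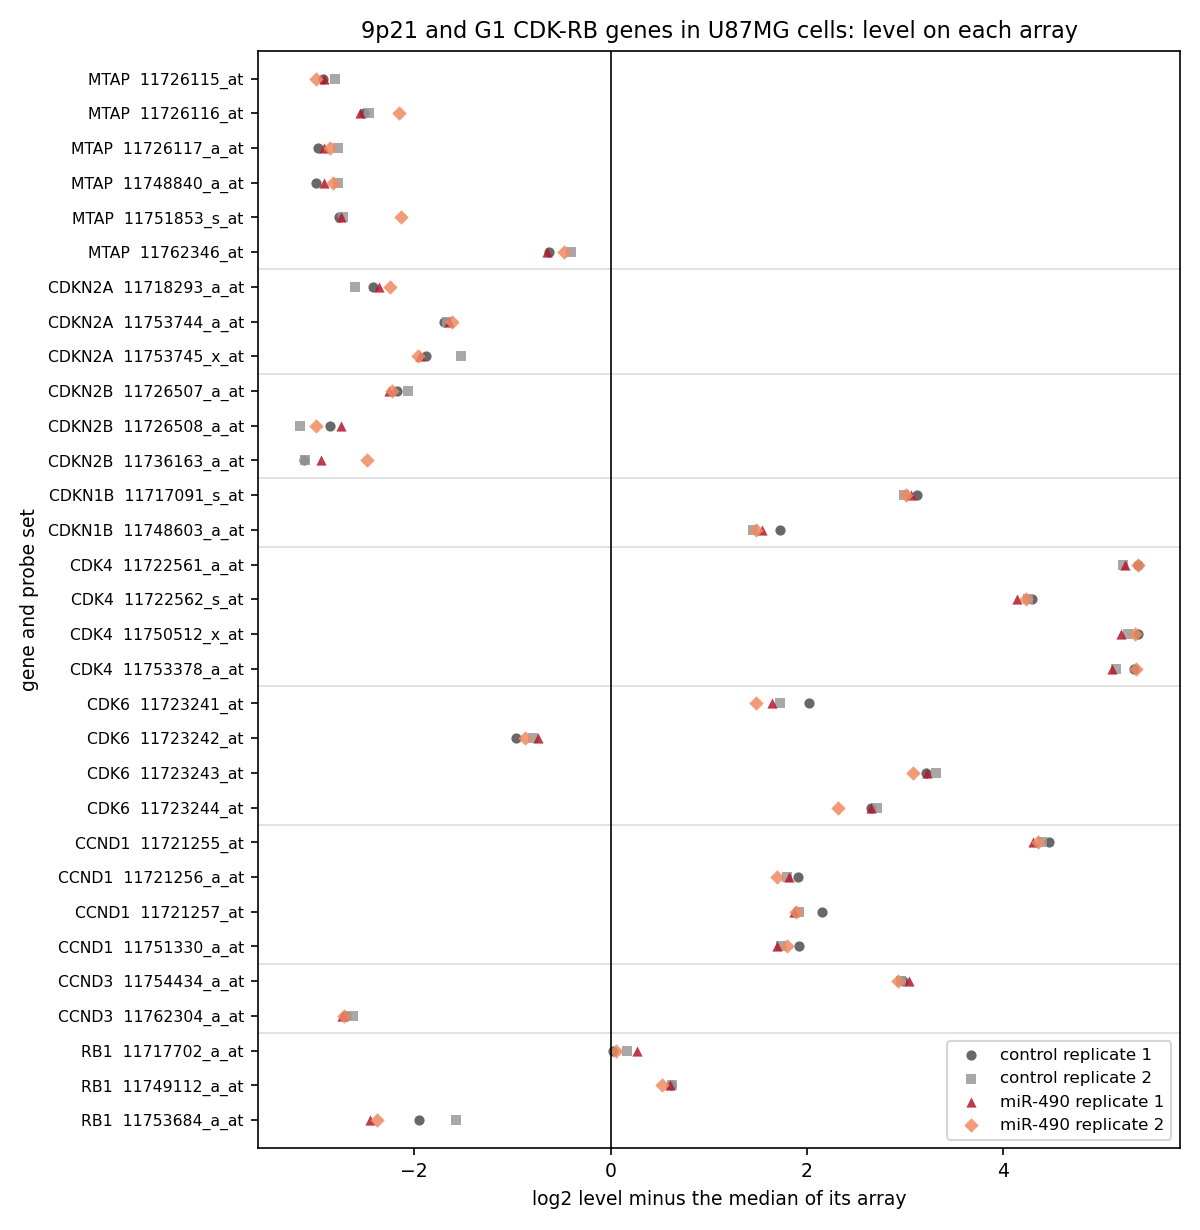
Each row is a member probe set and each point 1 array, plotted as the log2 level minus the median of that array (vertical line at 0); circles and squares are the control arrays, triangles and diamonds the miR-490 arrays. All 12 probe sets of MTAP, CDKN2A and CDKN2B lie to the left of 0 on every array, and the 4 of CDK4 lie 4.23 to 5.30 to the right in the mean.

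The low signal extended to the genes on either side of the 9p21 members. Of 17 measured neighbours in a fixed list, 13 had no probe set above the array median in the mean. Among all protein-coding genes placed on a chromosome, 41.7% had none. The 13 include the interferon genes IFNA2, IFNA5, IFNA8, IFNB1, IFNE and IFNW1, of a family that most unstimulated cells do not express. The 4 neighbours that had one, TUSC1, CAAP1, PLAA and IFT74, all lie on one side, beyond ELAVL2. Among the dim neighbours, FOCAD, a focal adhesion protein gene, read 3.04 and 3.10 in controls and 3.10 and 3.20 with miR-490. KLHL9, an adaptor of a ubiquitin ligase, had 5 probe sets with means of 2.29 to 2.78. The noncoding gene CDKN2B-AS1 had a mean of 2.54. TUSC1, by contrast, was bright, with 8.0 and 8.01 in controls and 7.97 and 7.94 with miR-490.

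With every measured protein-coding gene of this stretch placed in the order of the RefSeq gene table, a view chosen after seeing the data, 25 consecutive genes from ACER2 to ELAVL2 had all their probe sets below the array median in the mean. They held 47 probe sets, and all 47 were below the median on each of the 4 arrays. The run includes 14 interferon genes, which most unstimulated cells do not express. The other members of the run, next to MTAP, CDKN2A and CDKN2B, are ACER2, SLC24A2, MLLT3, FOCAD, HACD4, KLHL9, DMRTA1 and ELAVL2. The gene before the run, RPS6, a ribosomal protein gene, lay 7.57 above the array median, and the gene after it, TUSC1, lay 2.82 above. Of all 17267 protein-coding genes placed this way, 41.7% had no probe set above the median, and 7 of 3556 such runs over all chromosomes had at least 25 genes, the longest 56. The run was chosen because it holds the members, so its length was not tested.

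**Figure D2:**
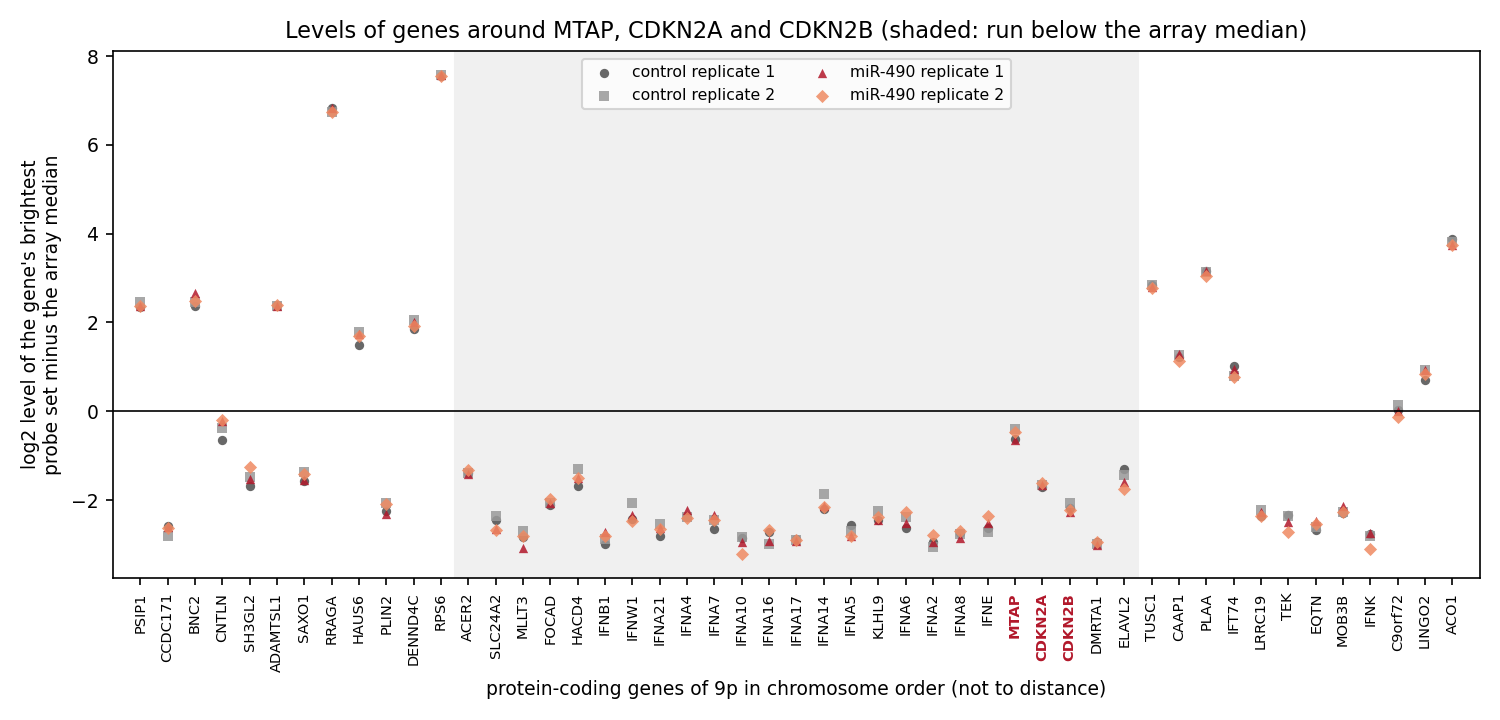
Genes of the short arm of chromosome 9 in chromosome order (not to distance), each with the log2 level of its brightest probe set minus the array median, 1 point per array. Shading marks the 25 genes from ACER2 to ELAVL2, which stay between 0.54 and 2.97 below the median in the mean; of the 12 genes on each side, 7 lie above it in the mean.

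Outside 9p21, 16 of the 19 probe sets of the axis were above the array median on all 4 arrays, where 23894 of all 49293 probe sets were. Against a median over genes, each taken at its highest-mean probe set, 14 of the 19 were above. The 4 CDK4 probe sets had means of 9.39 to 10.46, at the 92.2 percentile of the table or above. Its set 11722561_a_at read 10.52 and 10.38 in controls and 10.40 and 10.54 with miR-490. CDK6 had 3 probe sets 1.72 to 3.21 above the median, and its 11723242_at lay 0.84 below. CCND1, which encodes cyclin D1, had 4 probe sets 1.79 to 4.38 above the median. CCND3, which encodes cyclin D3, was split: 11754434_a_at had a mean of 8.14 and 11762304_a_at a mean of 2.47. The 2 CCND3 probe sets thus disagree on which side of the median the gene lies, as those of CDK6 do.

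CDKN1B, the gene of the inhibitor p27, read 8.27 and 8.15 in controls and 8.22 and 8.18 with miR-490 at 11717091_s_at, and its other probe set had a mean of 6.71. RB1 lay near the middle of the range, with 11717702_a_at and 11749112_a_at at 0.13 and 0.60 above the array median and 11753684_a_at at 2.09 below. The place of RB1 relative to the median depends on the reference: against the median over genes with 1 probe set each, which was 5.81 to 5.86, no RB1 probe set was above on all arrays. Of the other CDK inhibitors, CDKN1A, which encodes p21, had a mean of 10.66 at its brightest probe set, and CDKN2D, which encodes the INK4 protein p19, had 7.43 at its only one. CCND2, the third D cyclin gene, had no probe set above the median.

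The comparison of the vectors asks which of these transcripts differ when miR-490 is overexpressed. No member passed the threshold: with limma and Benjamini-Hochberg adjustment over all 49293 probe sets, 0 of 31 had an adjusted p under 0.05, against 0% of all probe sets. The lowest adjusted p among them was 0.90. Before adjustment 1 of the 31 had a p under 0.05, against 5.15% of all, of which 2.48% were lower and 2.66% higher with miR-490. The groups did not overlap in 10 of the 31, 7 lower and 3 higher with miR-490, against 31.2% of all probe sets, or 15.6% in each direction. An exact two-sided permutation test of a single probe set cannot go below p = 0.333 in a design of 2 against 2 arrays. The members' median log2 fold change was -0.04, with 18 lower, 11 higher and 2 at 0, beside a median of 0 over all probe sets, of which 47.8% were lower. The pooled counts are close to the background, and they say nothing particular about the members. They join parts that differ. The 12 9p21 probe sets had 4 lower, 7 higher and 1 at 0, and the other 19 had 14, 4 and 1. Without overlap, 2 were lower and 3 higher at 9p21, against 5 and 0 outside it. Control replicate 1 was the highest array in 9 of those 19 (47.4%), against 29.9% of probe sets above the median on all arrays. This difference between the parts was not tested. The count at an unadjusted p under 0.05 moved from 0 to 4 with 1 array left out: it was 0 without miR-490 replicate 2, 4 without miR-490 replicate 1, 3 without control replicate 2 and 2 without control replicate 1.

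Among the INK4 genes and MTAP, the 2 largest differences were at low signal and became larger or smaller with the array left out. CDKN2B 11736163_a_at read 2.03 and 2.05 in controls and 2.21 and 2.69 with miR-490, which is 0.41 higher in the mean (limma, adjusted p 0.90, 95% interval -0.03 to 0.85). The groups did not overlap, but the second miR-490 array stood 0.48 above the first, and the log2 fold change was 0.17 without it and 0.65 without miR-490 replicate 1. MTAP 11751853_s_at read 2.38 and 2.43 in controls and 2.41 and 3.04 with miR-490, which is 0.32 higher in the mean (limma, adjusted p 0.92, 95% interval -0.24 to 0.88) but 0.005 higher without miR-490 replicate 2 and 0.635 higher without miR-490 replicate 1. MTAP 11726116_at read 2.64 and 2.70 in controls and 2.61 and 3.02 with miR-490, a log2 fold change of 0.145 that was -0.06 without miR-490 replicate 2 and 0.35 without replicate 1. In these 3 probe sets the same array, miR-490 replicate 2, was the high one, but they are not the 3 largest differences. Larger than that at MTAP 11726116_at were 2 of CDKN2A. These were 11753745_x_at (-0.24), highest on control replicate 2, and 11718293_a_at (0.215), highest on miR-490 replicate 2.

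Over the 12 9p21 probe sets, control replicate 2 was the highest of the 4 arrays in 6, miR-490 replicate 2 in 5 and miR-490 replicate 1 in 1. Of the 23907 probe sets below the median on all arrays, 6216 were highest on control replicate 2 and 6463 on miR-490 replicate 2. The other CDKN2B probe sets differed in sign, with log2 fold changes of 0.145 at 11726508_a_at (0.265 without miR-490 replicate 2) and -0.115 at 11726507_a_at, so 2 of 3 had a higher mean with miR-490. The other 4 MTAP probe sets had log2 fold changes of -0.08, -0.035, 0 and 0.025. The 3 CDKN2A probe sets had log2 fold changes of 0.215, 0.06 and -0.24. The one that was lower, 11753745_x_at, read 3.27 and 3.64 in controls and 3.22 and 3.21 with miR-490, so control replicate 2 was the array that stood out. The range over the 4 arrays was 0.305 in the median over the 12 probe sets, against 0.26 over all probe sets below the median on every array and 0.16 over those above.

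CDK4, the kinase, had log2 fold changes of -0.075 to 0.02 over its 4 probe sets, with 95% intervals that together spanned -0.31 to 0.31. CDK6 had lower means with miR-490 at 3 of 4 probe sets. Its largest difference was at 11723241_at, which read 7.17 and 6.89 in controls and 6.80 and 6.65 with miR-490 (log2 fold change -0.305, 95% interval -0.62 to 0.01; adjusted p 0.90, limma). These groups did not overlap, yet the controls lay 0.28 apart, and the log2 fold change ran from -0.165 without control replicate 1 to -0.445 without control replicate 2. CDK6 11723244_at read 7.80 and 7.87 in controls and 7.81 and 7.49 with miR-490, so 1 miR-490 array lay at the control level. CDK6 11723243_at had a log2 fold change of -0.10, and the dimmer 11723242_at one of 0.08.

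CCND1 had lower means with miR-490 at 4 of 4 probe sets, with log2 fold changes of -0.145 to -0.075. Its brightest, 11721255_at, read 9.62 and 9.55 in controls and 9.46 and 9.52 with miR-490, a fold of 0.936 (95% interval of the log2 fold change -0.28 to 0.09; adjusted p 0.93, limma). At 11721257_at the values were 7.30 and 7.08 in controls and 7.03 and 7.06 with miR-490. In both of these the groups did not overlap, while in the other 2 they did. Control replicate 1 was the highest array at each of the 4 probe sets, which share those arrays and are 1 gene, so they are not 4 independent readings. Without that array the 4 log2 fold changes were -0.06, -0.04, -0.035 and 0.01, and without control replicate 2 they were -0.255 to -0.13. CCND3 had log2 fold changes of 0.025 and -0.06, and CDKN1B of -0.01 and -0.07.

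RB1 held the member probe set with the smallest p. RB1 11753684_a_at read 3.20 and 3.59 in controls and 2.71 and 2.79 with miR-490, a difference of -0.645 in log2 (limma, unadjusted p 0.00748, adjusted p 0.90, 95% interval -1.02 to -0.27). Both miR-490 arrays were below both controls, which themselves lay 0.39 apart, and the difference was -0.84 without control replicate 1 and -0.45 without control replicate 2. Over the whole table the log2 fold changes ran from -0.675 to 0.67, and this one ranked 4 by size among the 49293, at a probe set below the median on all arrays. The brighter RB1 probe sets did not show this difference: 11749112_a_at read 5.77 and 5.79 in controls and 5.77 and 5.69 with miR-490, with a 95% interval of -0.23 to 0.13, and 11717702_a_at had a log2 fold change of 0.08. With the mean of the 3 probe sets per gene, RB1 had a log2 fold change of -0.205 (unadjusted p 0.0501, limma).

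**Figure D3:**
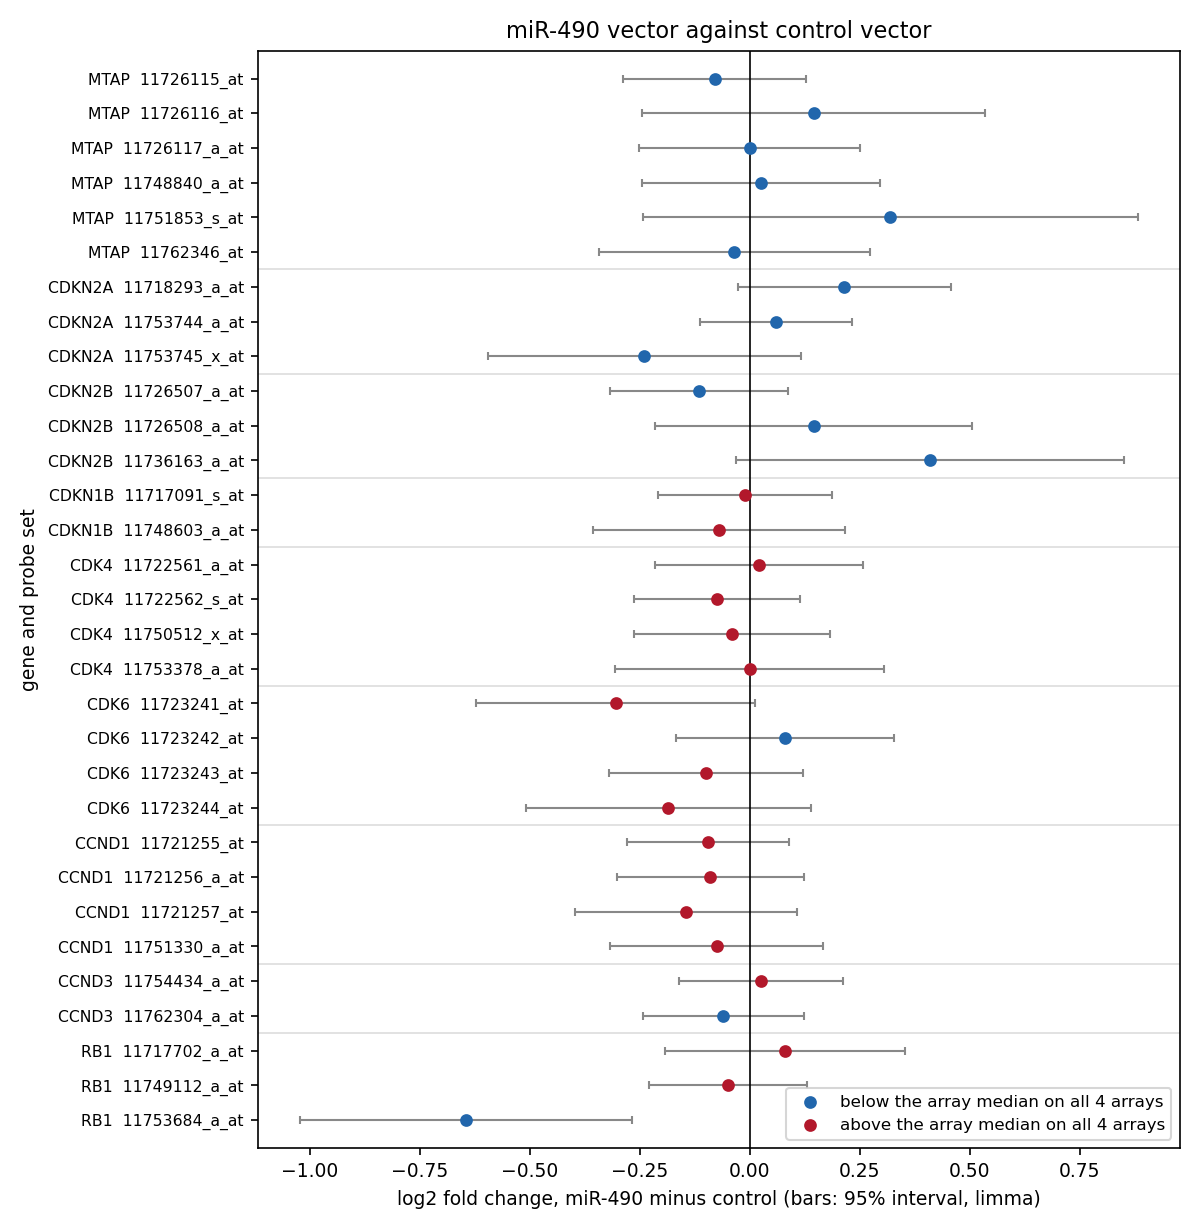
The log2 fold change of each member probe set (miR-490 minus control, 2 arrays each), with its 95% interval from limma; blue points lie below the array median on all 4 arrays and red points above. The interval excludes 0 only at RB1 11753684_a_at (-1.02 to -0.27), and the adjusted p was 0.90 there.

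Genes around the axis, from lists written down for this purpose, were compared the same way, and 0 probe sets of any of the 4 lists had an adjusted p under 0.05 (limma). The genes named from them are those with the smallest p, so their values are not typical of the lists. The list of other CDK-RB pathway genes, which holds further cyclins, kinases, inhibitors, pocket proteins and E2F factors, had 33 genes with 81 probe sets and a median log2 fold change of -0.005. At an unadjusted p under 0.05 it had 3 probe sets, or 3.70%, all lower with miR-490, against 2.48% of all probe sets in that direction. E2F6, a repressor of the E2F family, read 5.54 and 5.34 in controls and 5.11 and 5.0 with miR-490 at 11729233_a_at (log2 fold change -0.385). Its other 4 probe sets had -0.18, 0.025, 0.04 and 0.07, so 3 of 5 had a higher mean with miR-490. CDC25A, the phosphatase that activates CDK2, read 6.28 and 6.22 in controls and 6.10 and 5.84 with miR-490 at 11726757_s_at (-0.28), and its other 2 probe sets, both below the array median in the mean, had -0.155 and 0.115. CCNE2, which encodes cyclin E2, had -0.19 at its brighter probe set. In the probe sets at -0.385, -0.28 and -0.19 the groups did not overlap, but only that of E2F6 had an unadjusted p under 0.05. The other 2 below that p, singled out after their values were seen, lay below the array median in the mean: a second CCNE2 probe set, 11728301_a_at, at -0.31, and CCND2 11719199_a_at, at -0.225. The other CCND2 probe sets had -0.09 and 0.17.

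E2F targets, the replication genes that RB holds down, had 24 measured genes with 64 probe sets and a median log2 fold change of -0.02. Of these probe sets 38 were lower (59.4%), 23 higher and 3 at 0, where 47.8% of all probe sets were lower. At an unadjusted p under 0.05 there were 3 of 64, or 4.69%, all lower, against 5.15% of all probe sets in either direction and 2.48% lower. CDC45, a factor of the replicative helicase, read 5.39 and 5.48 in controls and 5.20 and 5.16 with miR-490 at 11751123_a_at, and it was 1 of the 3. The others, singled out after their values were seen, lay below the array median in the mean: ORC1, of the origin recognition complex, at -0.255 (11727839_x_at) and PCNA, the clamp of the replicative polymerases, at -0.305 (11761013_at). Brighter probe sets of PCNA and CDC45 had smaller differences: PCNA 11716103_a_at had -0.08, and the other 2 of CDC45 had -0.06 and -0.045. ORC1 had only 1 probe set, 0.10 below the array median in the mean, so no brighter one could be compared. MCM3, a helicase subunit, had -0.16 at 11748174_x_at, and UHRF1, which maintains DNA methylation, had -0.195 at 11748783_a_at, neither with an unadjusted p under 0.05 (limma). The other 3 MCM3 probe sets had -0.03 to -0.015, and the other 2 of UHRF1 had -0.105 and 0.18. The list's median turned sign with the arrays used, from -0.085 without control replicate 2 to 0.035 without control replicate 1. No direction can be given for this readout of the axis.

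Genes linked to MTAP through polyamine synthesis, methionine salvage and the methyltransferase PRMT5 were bright, with a probe set above the array median in 13 of 13 genes. Their 40 probe sets had a median log2 fold change of -0.0325, with 28 lower (70%), 10 higher and 2 at 0. Of all probe sets, 47.8% were lower. The groups did not overlap in 15 of the 40, 13 lower and 2 higher, against 15.6% of all probe sets in each direction. None of the 40 had an unadjusted p under 0.05 (limma), against 5.15% of all probe sets. Of the 40, 37 lay above the median on all 4 arrays. Among all 23894 such probe sets, 2.39% had an unadjusted p under 0.05 (limma) and 50.2% were lower. Without overlap, 4234 of the 23894 were lower and 3331 higher. APIP is an enzyme of the methionine salvage route that starts with MTAP. At 11720834_a_at, the dimmer of its 2 probe sets, it read 8.52 and 8.47 in controls and 8.34 and 8.36 with miR-490. ENOPH1, of the same route, read 8.45 in both controls and 8.32 and 8.33 with miR-490 at 11716817_a_at, the brighter of its 2 probe sets. The second probe sets of APIP and ENOPH1 are not described here. MAT2A, which makes S-adenosylmethionine, had a log2 fold change of -0.12 at 11757376_s_at and -0.16 to -0.015 at its other 5 probe sets. The 31 probe sets of the 9p21 neighbours had a median of -0.025, and 6 had an unadjusted p under 0.05 (limma), 3 in each direction and all below the array median in the mean. That is 19.4% of the list, against 5.15% of all probe sets and 7.62% of those below the median on all arrays. The lower ones were of CDKN2B-AS1, ELAVL2 and HACD4 and the higher ones of IFNE, IFT74 and KLHL9. Other probe sets of these genes did not share the differences. KLHL9 had -0.135, -0.115, -0.06 and 0.045 at its others. IFT74 had 0.135 and, at its brightest, -0.025, and HACD4 had -0.095 and 0. CDKN2B-AS1, ELAVL2 and IFNE had only 1 probe set each. Among the neighbours above the median, PLAA had log2 fold changes of 0.135 at 11743055_at and -0.035 at the brighter 11743056_at, CAAP1 had -0.06 and -0.02, and TUSC1 had -0.05.

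**Figure D4:**
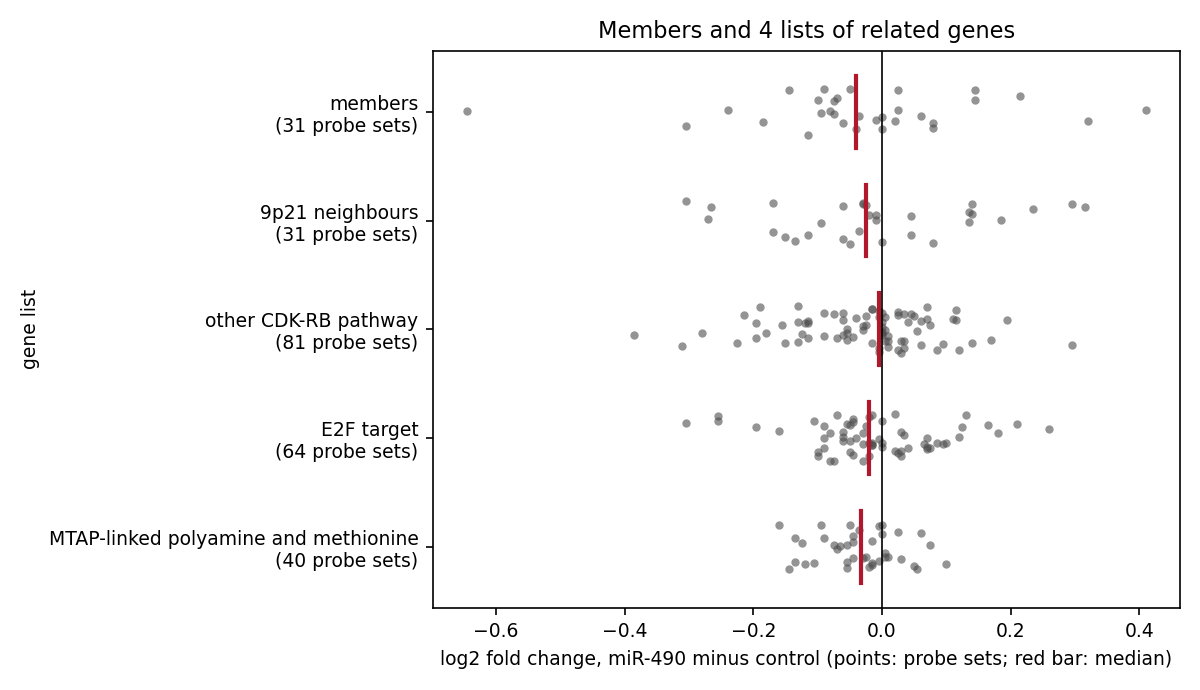
Log2 fold change (miR-490 minus control) of each probe set of the members and of 4 lists of related genes; points are probe sets, spread vertically for legibility, and red bars are medians. The medians lie between -0.04 and -0.005, and the member point farthest from 0 is RB1 11753684_a_at at -0.645.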

How the data were processed

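Total RNA, 100 ng per array, was labelled with biotin, per the labels' protocols. The authors summarised each probe set with RMA, which the submitters' processing notes name, and the deposited unit is log2; version and options of RMA were not given in the sources used here. RMA makes the arrays' distributions alike, so a shift of most transcripts cannot be seen, and low signals are compressed. Detection calls, scan dates and batches were not used here. Groups and replicate numbers came from the sample titles.

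The groups were compared on all 49293 probe sets with limma 3.58.1 in R 4.3.3 (lmFit, eBayes; degrees of freedom 2 residual and 2.73 prior). Tests were two-sided and adjusted by Benjamini-Hochberg at 0.05. The fit was also run on simulated data drawn from its own estimate of the spread. Such data cannot check that estimate, nor effects shared by the probe sets of an array. Lists are described by counts and medians. All members were named, and of each list, by rule, at most 3 genes with the smallest p above the array median. Neighbours of 9p21 and cell type markers were also named by level. Outside that rule, CDKN1A, CDKN2D and CCND2 were named for their level. ORC1, PCNA, a second CCNE2 probe set, a CCND2 probe set and the neighbours at an unadjusted p under 0.05 (limma) were named after their values were seen. The members and lists were chosen with earlier results of these data known. Some listed genes were not analysed here: 1 of 18 9p21 neighbours, 2 of 26 E2F targets, 8 of 25 tissue-restricted and 3 of 15 ubiquitous genes, and 1 of 16 markers. Alternatives were quantile normalisation, median centring, an intensity trend, that trend plus a robust prior, a filter on dim probe sets, gene-level fits, an ordinary test, each array left out and the replicate number as a block. Gene order came from the RefSeq table (GRCh38.p14), used for neighbours only. Figures used matplotlib 3.10.9.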

Additional observations from a re-analysis of the deposited data

How the results depend on the processing

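No probe set or gene passed the adjusted threshold under any alternative run, for the whole table, the members or the 4 lists; the smallest adjusted p of a member probe set over them was 0.643. The count of member probe sets at an unadjusted p under 0.05, 1 as reported, was 3 with quantile normalisation, with an intensity trend and with a trend and robust prior, 0 with the highest-mean or the mean probe set per gene (9 genes) and with the ordinary test, 2 with the replicate block, and 0 to 4 with 1 array left out. The count without overlap, 10 as reported, was 4 with probe sets above the median level (16 tested), 3 with the highest-mean and 4 with the mean probe set per gene, and 20 to 22 with 1 array left out, where 2 arrays face 1. The members' median was -0.0725 with probe sets above the median level only. The median of the MTAP-linked list was -0.0197 with quantile normalisation, -0.0425 with median centring, -0.025 with the highest-mean and -0.013 with the mean probe set per gene, and that of the 9p21 neighbours -0.01 with the latter. With 1 array left out the medians were -0.03 to 0.01 for the 9p21 neighbours, -0.04 to 0.01 for the other CDK-RB pathway, -0.085 to 0.035 for the E2F targets and -0.0425 to -0.03 for the MTAP-linked list; a group of 1 array is then assumed to vary like the other. Of 326 alternatives of single member probe sets, 31 had another sign or 0, with 0 calls. Deviations of same-numbered arrays correlated at -0.0844, and the labels do not say that numbers mark a shared preparation; the replicate block changed no call. The cause of these shifts was not tested. Levels of the 12 9p21 probe sets were below the median under each reference. Dim signals lie near the floor of these arrays.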
